A study of Mus musculus with 3 samples.

Results

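The 10 genes described here, Pecam1, Cdh5, Emcn, Kdr, Flt1, Tek, Tie1, Egfl7, Erg and Sox17, are established genes of the endothelium, the cell layer that lines blood vessels. They were taken by name from the 21593 protein-coding genes counted in this series, with earlier results of these data known. Chromatin accessibility was measured by single-nucleus ATAC-seq (snATAC-seq), in which the transposase Tn5 cuts and tags open DNA inside nuclei and each nucleus receives a droplet barcode. The nuclei came from fresh frozen wild-type (WT) C57BL/6JRj mouse embryos of stage E12.5, E13.5 or E15.5, as a reference for spatial maps of littermates, with 1 library per stage from several sections, and nothing was treated or deleted in any of them. The sources used here do not say how many embryos went into a library. The clusters compared are those of the deposited table, without clusters 2 and 4, which left 10 clusters and 1450 of 1879 nuclei. Cluster 8, in which these genes were looked for, held 2 nuclei in the E12.5 library, 52 in that of E13.5 and 38 in that of E15.5. Median depth in cluster 8 was 85392 unique fragments per nucleus at E13.5 and 70809 at E15.5, against 73603 and 63807 in the other 9 clusters. A single barcode sequence occurred in both the E13.5 and the E15.5 library, none of the cluster 8 nuclei of these libraries shared 10% or more of its fragments with another barcode, and 1 of the 2 at E12.5 did. The clusters rest on the accessibility of the same nuclei and each stage had 1 library, so all comparisons below are descriptions without a test. Their 95% intervals are exact and cover counting error only.

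Endothelial cells form vessels under the control of secreted growth factors. Vascular endothelial growth factor (VEGF) binds the receptor tyrosine kinases encoded by Kdr (VEGFR2), the main signalling receptor, and Flt1 (VEGFR1), which binds VEGF tightly and limits its action. Angiopoietins bind the kinase encoded by Tek (Tie2), and Tie1 is the related receptor that acts with it. Pecam1 (CD31) and Cdh5 (VE-cadherin) encode adhesion molecules at the contacts between endothelial cells, Emcn encodes the sialomucin endomucin, and Egfl7 encodes a protein that endothelial cells secrete. Erg and Sox17 encode transcription factors of the ETS and SOX families, and Sox17 is known for its role in arterial endothelium.

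Accessibility of a gene was the number of unique fragments over its body and the 2 kb upstream. It is given as CPM, the count divided by all fragments counted in genes of the same nuclei and scaled to a total of 1000000. Summed over the 10 genes, cluster 8 had the highest level of the 10 clusters at both E13.5 and E15.5. At E13.5 it held 910.2 CPM (877.5 to 943.9), followed by cluster 3 with 819.6 CPM (799.8 to 839.9), cluster 1 with 717.1 CPM and cluster 7 with 716.8 CPM. The interval of cluster 8 lay above those of the other 9 clusters, and the intervals of clusters 1 and 7 overlapped each other. The lowest level at E13.5 was 222.3 CPM in cluster 11. At E15.5 cluster 8 held 1439 CPM (1383 to 1498), against 771.6 CPM (739.5 to 804.7) in cluster 3 and 346.0 to 631.5 CPM in the remaining 8 clusters. The 2 nuclei of cluster 8 at E12.5 gave 62 fragments in all, or 947.5 CPM (726.5 to 1215), an interval that overlapped that of cluster 5 (832.5 CPM, 744.3 to 928.2). Cluster 8 was 1.44-fold (1.389 to 1.501) above the other 9 clusters together at E13.5, 2.43-fold (2.32 to 2.54) at E15.5 and 1.36-fold (1.04 to 1.75) at E12.5. The intervals of E13.5 and E15.5 did not overlap, but with 1 library per stage, stage and library cannot be told apart.

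At the promoter, taken as 1000 bp upstream to 100 bp downstream of the outermost annotated start, the summed folds were larger and the counts smaller. Promoter CPM is per all fragments in these promoters of all genes counted, so CPM at the promoter and over the body are on different scales. The summed promoter level in cluster 8 was 230.5 CPM (193.7 to 272.4) at E13.5, an interval that overlapped those of cluster 3 (201.1 CPM, 174.7 to 230.4) and cluster 7 (147.5 CPM, 105.4 to 200.9). At E15.5 it was 463.7 CPM (396.2 to 539.4), and the next cluster, again cluster 3, reached 144.9 CPM (109.7 to 187.7). This was 2.17-fold (1.79 to 2.60) above the other 9 clusters at E13.5 and 5.50-fold (4.55 to 6.61) at E15.5. For single genes the interval of cluster 8 lay above all 9 others for 1 gene at E13.5 and 0 at E15.5, beside 1 and 5 over the body. The share of all genes with such intervals is not given here. At E15.5 cluster 11, with 7 nuclei and 0 fragments at the Tie1 promoter, had an upper limit of 119.2 CPM there. The interval of cluster 8 for that promoter (88.2 to 163.0 CPM) lay above those of the other 8 clusters. Cluster 8 held 6.43% of the nuclei of the 10 clusters and 8.18% of all gene fragments at E13.5, but 11.4% (11.02 to 11.80%) of the fragments of the 10 genes and 16.1% (13.7 to 18.8%) of those at their promoters. At E15.5 the corresponding shares were 6.81%, 7.39%, 16.2% (15.6 to 16.8%) and 31.2% (27.3 to 35.3%). The larger part of the fragments over these genes therefore lay in nuclei outside cluster 8 in both libraries.

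**Figure D1:**
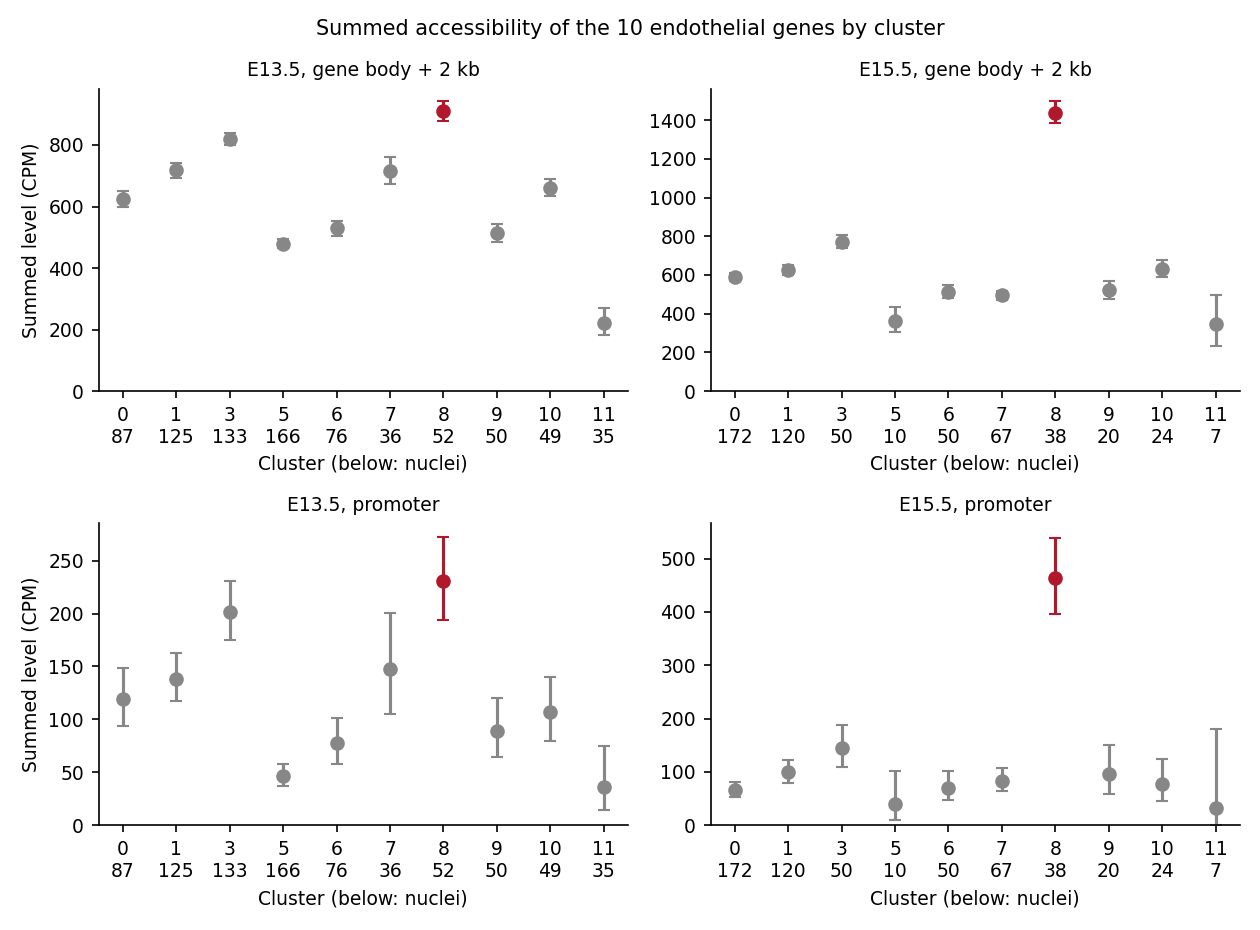
Summed level of the 10 genes in CPM for each cluster, over gene body plus 2 kb (top) and at the promoter (bottom), at E13.5 (left) and E15.5 (right). Points are sums over the nuclei of a cluster, whose number stands below its name, and bars are exact Poisson 95% intervals. Cluster 8 is red and lies highest in all 4 panels, with an interval that overlaps others, those of clusters 3 and 7, only for the promoter at E13.5.

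Among the junction and surface genes, Pecam1 and Cdh5 were higher in cluster 8 in both libraries and Emcn was not. Pecam1 (chr11:106654217-106750628 in mm10, minus strand) had 181.7 CPM in cluster 8 and 108.2 CPM in the other 9 clusters at E13.5, and 274.6 against 107.8 CPM at E15.5, which is 1.68-fold (1.54 to 1.83) and 2.55-fold (2.30 to 2.82). Its counted span overlaps Milr1, a gene of mast cells, and fragments in the overlap count for both. Cdh5 (chr8:104101625-104144511, plus strand) had 53.5 against 31.3 CPM at E13.5 and 101.6 against 34.5 CPM at E15.5, or 1.71-fold (1.45 to 2.01) and 2.95-fold (2.48 to 3.48). At E15.5 the interval of both genes in cluster 8 lay above that of each of the other 9 clusters. At the promoter, Pecam1 was 6.49-fold (3.49 to 11.8) and 4.27-fold (1.38 to 11.4) higher, from 19 and 6 fragments in cluster 8. The promoter of Cdh5 was 1.59-fold (0.69 to 3.20) higher at E13.5, an interval that includes 1, and 10.5-fold (5.35 to 20.2) higher at E15.5. Emcn (chr3:137341067-137432185, plus strand) had 25.95 against 32.17 CPM over its body at E13.5, 0.81-fold (0.64 to 1.01), and 37.2 against 33.9 CPM at E15.5, 1.10-fold (0.84 to 1.42). Cluster 8 ranked 7 of 10 for the body of Emcn at E13.5. The promoter of Emcn differed from its body, with 6 fragments in cluster 8 and 29 in the rest at E13.5, or 2.33-fold (0.79 to 5.72), and 9 against 10 fragments at E15.5, or 10.9-fold (3.92 to 29.8).

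Both VEGF receptors were higher in cluster 8. Kdr (chr5:75932827-75978458, minus strand) had 58.5 against 35.4 CPM at E13.5, 1.65-fold (1.41 to 1.93), and 158.3 against 27.9 CPM at E15.5. That difference at E15.5, 5.67-fold (4.89 to 6.57), was the largest of the 10 genes over the gene body. Flt1 (chr5:147561604-147726011, minus strand) had 185.7 against 113.6 CPM at E13.5 and 277.6 against 101.8 CPM at E15.5, or 1.64-fold (1.498 to 1.783) and 2.73-fold (2.46 to 3.01). Flt1 was the only gene of the 10 whose body level at E13.5 had an interval above those of all 9 other clusters. The Kdr promoter was open in other clusters as well, at 21.8 CPM in the rest against 31.7 CPM in cluster 8 at E13.5, 1.46-fold (0.85 to 2.36), and at 21.2 against 104.9 CPM at E15.5, 4.95-fold (3.30 to 7.29). The Flt1 promoter was 2.54-fold (1.58 to 3.95) and 3.82-fold (2.31 to 6.12) higher.

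Of the angiopoietin receptor gene Tek and the related receptor gene Tie1, Tie1 had the promoter with the larger fold in cluster 8. Tie1 (chr4:118471191-118490061, minus strand) had 24 promoter fragments in cluster 8 and 20 in the other 9 clusters at E13.5, or 40.1 against 2.96 CPM, and 44 against 10 at E15.5, or 121.4 against 2.28 CPM. The fold was 13.53 (7.16 to 25.8) at E13.5 and 53.3 (26.4 to 118.7) at E15.5. These fragments came from 11 of the 52 and 18 of the 38 nuclei of cluster 8, with at most 7 and 9 in a single nucleus. Over its body Tie1 had 24.7 against 17.5 CPM at E13.5, 1.41-fold (1.10 to 1.79), and 59.1 against 13.9 CPM at E15.5, 4.23-fold (3.34 to 5.33). Tek (chr4:94739289-94874976, plus strand) had 59.1 against 51.0 CPM at E13.5, 1.16-fold (0.99 to 1.35), where cluster 3 was higher at 76.6 CPM (70.7 to 83.0). Cluster 10 was also higher, at 64.5 CPM (55.7 to 74.2), with an interval that overlapped that of cluster 8. At E15.5 Tek had 129.9 against 49.8 CPM, 2.61-fold (2.25 to 3.02), with an interval above those of all 9 other clusters. The Tek promoter gave 8 fragments in cluster 8 in each library, 1.504-fold (0.62 to 3.16) and 2.69-fold (1.08 to 5.89).

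Egfl7 (chr2:26580014-26593120, plus strand) had 70.4 against 43.9 CPM at E13.5, 1.60-fold (1.39 to 1.84), and 119.3 against 35.5 CPM at E15.5, 3.36-fold (2.86 to 3.93). Its span overlaps those of Agpat2 and Gm20532, so part of these fragments cannot be assigned to Egfl7 alone. Per kb of counted span, Egfl7 had the highest level of the 10 genes in cluster 8, 4.66 and 7.90 CPM per kb, and Emcn the lowest, 0.279 and 0.400 CPM per kb. In the rest Egfl7 was also highest, at 2.91 and 2.35 CPM per kb. The lowest there were Emcn at E13.5, at 0.345, and Tek at E15.5, at 0.362, with Emcn at 0.364. The transcription factor genes differed from each other. Erg (chr16:95359169-95586593, minus strand) had 234.8 against 184.7 CPM at E13.5, 1.27-fold (1.18 to 1.37), and 248.1 against 173.5 CPM at E15.5, 1.43-fold (1.29 to 1.58), and other clusters were higher. At E13.5 these were cluster 3 with 275.0 CPM (263.5 to 286.8), cluster 1 with 262.1 CPM (248.1 to 276.6) and cluster 7 with 245.1 CPM (219.9 to 272.4), of which only the interval of cluster 3 lay above that of cluster 8, and at E15.5 it was cluster 3 with 258.4 CPM (239.9 to 277.8), which overlapped it. Its outermost promoter gave 4 fragments in cluster 8 and 104 in the rest at E13.5, and 1 and 42 at E15.5, 0.43-fold (0.12 to 1.14) and 0.29-fold (0.0071 to 1.70). Sox17 (chr1:4490931-4497354, minus strand) had 15.9 against 12.6 CPM at E13.5, 1.26-fold (0.93 to 1.69), and 33.7 against 14.2 CPM at E15.5, 2.37-fold (1.76 to 3.16). At E13.5 cluster 0 was higher for Sox17, at 24.2 CPM (19.4 to 29.8), an interval that overlapped that of cluster 8 (11.9 to 21.0). In the 2 nuclei of cluster 8 at E12.5, the 10 genes had 1 to 13 fragments each and a single fragment, at Kdr, lay in a promoter. No order of the genes was read from these counts.

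**Figure D2:**
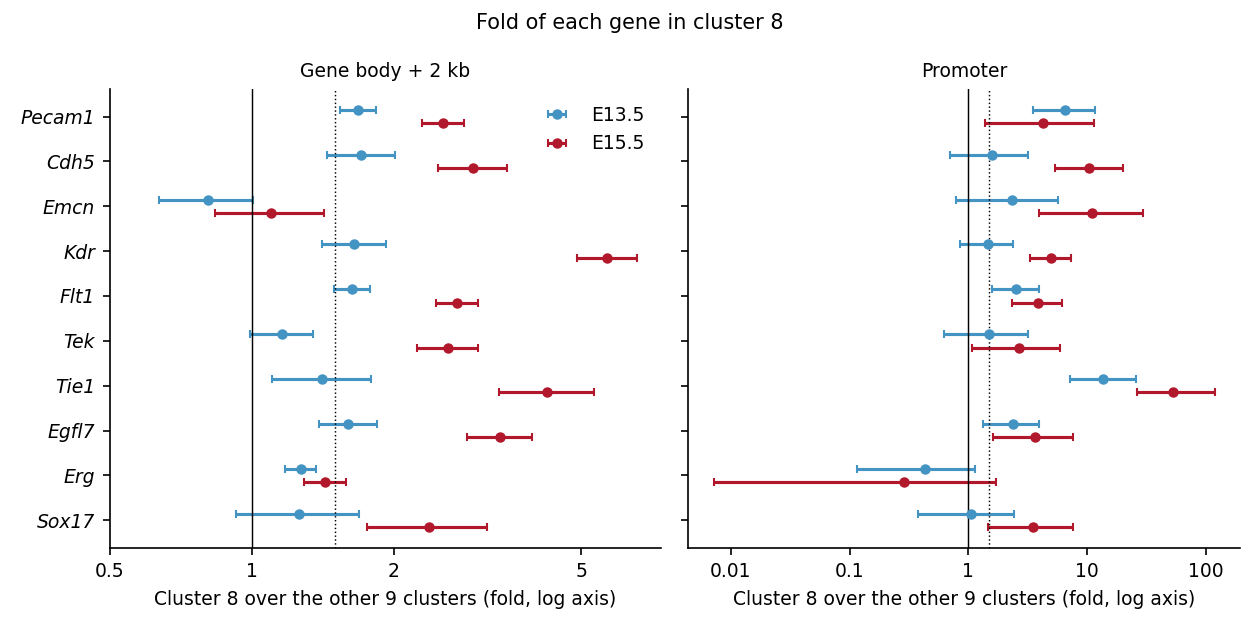
Fold of each gene, cluster 8 over the other 9 clusters, over gene body plus 2 kb (left) and at the promoter (right), on log axes. Points are ratios of CPM at E13.5 (blue) and E15.5 (red), bars are exact 95% intervals of a ratio of counts, the solid line marks 1 and the dotted line 1.5. Kdr, Tie1 and Egfl7 lie farthest right over the body at E15.5, and Tie1 farthest right at the promoter in both libraries.

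A gene was counted as higher in cluster 8 when its CPM was at least 1.5 times that of the other 9 clusters in both E13.5 and E15.5, with at least 50 fragments per library. All 10 genes passed the minimum, and 5 of them, Pecam1, Cdh5, Kdr, Flt1 and Egfl7, were higher, where 4.65% of 18708 genes were. The median fold of the 10 was 1.51 at E13.5 and 2.67 at E15.5, beside 0.998 and 0.981 for all genes tested. At E15.5 alone 8 of the 10 reached 1.5-fold, all but Emcn and Erg, where 11.7% of genes did, and at E13.5 alone 5 did, where 11.5% of genes did. At the promoter, with at least 10 fragments per library, 7 of the 10 were higher, where 7.00% of 17883 genes were, and Kdr, Erg and Sox17 were not. The median promoter fold was 1.96 and 4.05, beside 0.968 and 0.939. With the promoters of every annotated protein-coding transcript of a gene counted together, the same 7 were higher, where 6.68% of 18586 genes were. On that scale Erg and Sox17 were 1.29-fold (0.79 to 2.003) and 1.29-fold (0.78 to 2.03) at E13.5 and 3.17-fold (1.996 to 4.89) and 2.85-fold (1.82 to 4.33) at E15.5, and all 10 genes were at least 1.5-fold higher at E15.5, where 14.7% of genes were. The minimum of 10 fragments and the use of every start were chosen after the data were seen. At the planned minimum of 50 fragments, 2 of the 10 genes passed at the promoter and 1 was higher, where 4.10% of genes were.

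The next question was how many nuclei carried several of the 10 genes. A nucleus carried a gene when the counted span of that gene held at least 1 of its unique fragments. At full depth most nuclei inside and outside cluster 8 carried several. At least 5 genes were carried by 46 of 52 nuclei (88.5%, 76.6 to 95.6%) at E13.5 and by 35 of 38 (92.1%, 78.6 to 98.3%) at E15.5, but also by 66.7% (63.2 to 70.1%) and 68.5% (64.3 to 72.4%) of the nuclei of the other 9 clusters. In cluster 5, where all 7 genes of the erythroid list were at least 3.08-fold above the remaining clusters, 51.2% of nuclei at E13.5 carried 5 or more, at a median depth of 62521 fragments. Every nucleus with at least 10000 fragments was therefore thinned to 10000, which left out none of cluster 8 and 23 and 16 nuclei of the rest. The thinning was a single random draw per library, and the intervals do not cover how counts would vary between draws. Thinned nuclei of cluster 8 carried a median of 3 of the 10 genes at E13.5 and 5 at E15.5, beside 2 and 2 in the rest. After thinning, 12 of 52 (23.1%, 12.53 to 36.84%) and 20 of 38 (52.6%, 35.8 to 69.0%) carried at least 5, beside 4.90% (3.46 to 6.73%) and 5.16% (3.40 to 7.47%) of the rest.

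At least 6 genes, a threshold set after the data were seen, were carried after thinning by 5 of 52 nuclei of cluster 8 at E13.5 (9.62%, 3.20 to 21.0%) and by 16 of 38 at E15.5 (42.1%, 26.3 to 59.2%). In the rest the shares were 0.954% (7 of 734, 0.38 to 1.96%) and 0.794% (4 of 504, 0.22 to 2.02%), and in cluster 5 they were 2 of 160 nuclei at E13.5 and 0 of 10 at E15.5. Of the other clusters, cluster 10 had the highest share in both libraries. At E13.5 it was 2 of 49 nuclei (4.08%, 0.50 to 14.0%), an interval that overlapped that of cluster 8. At E15.5 it was 1 of 24 (4.17%, 0.11 to 21.1%). At 7 or more the counts were 2 and 11 in cluster 8 and 3 and 0 in the rest, and 0 of 504 allows a share of up to 0.595% at 3 counts and has an exact upper limit of 0.729%. The nuclei that carried 6 or more numbered 34 over all libraries, with 21 in cluster 8 and 13 in other clusters. Without its nuclei of 6 or more genes, which lowers its level by construction since the same nuclei of the rest stayed in, the summed level of cluster 8 was 1.21-fold that of the rest at E13.5 and 1.44-fold at E15.5. Nuclei that carried 2 or more of the 10 genes at the promoter, at full depth, made up 36.5% (19 of 52, 23.6 to 51.0%) and 63.2% (24 of 38, 46.0 to 78.2%) of cluster 8, beside 15.1% and 10.6% of the rest. After thinning these were 3 of 52 and 7 of 38 nuclei, beside 3 of 734 and 2 of 504. A single nucleus supplied at most 6.84% and 7.35% of the fragments of the 10 genes in cluster 8 and 15.9% and 9.52% of those at their promoters.

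**Figure D3:**
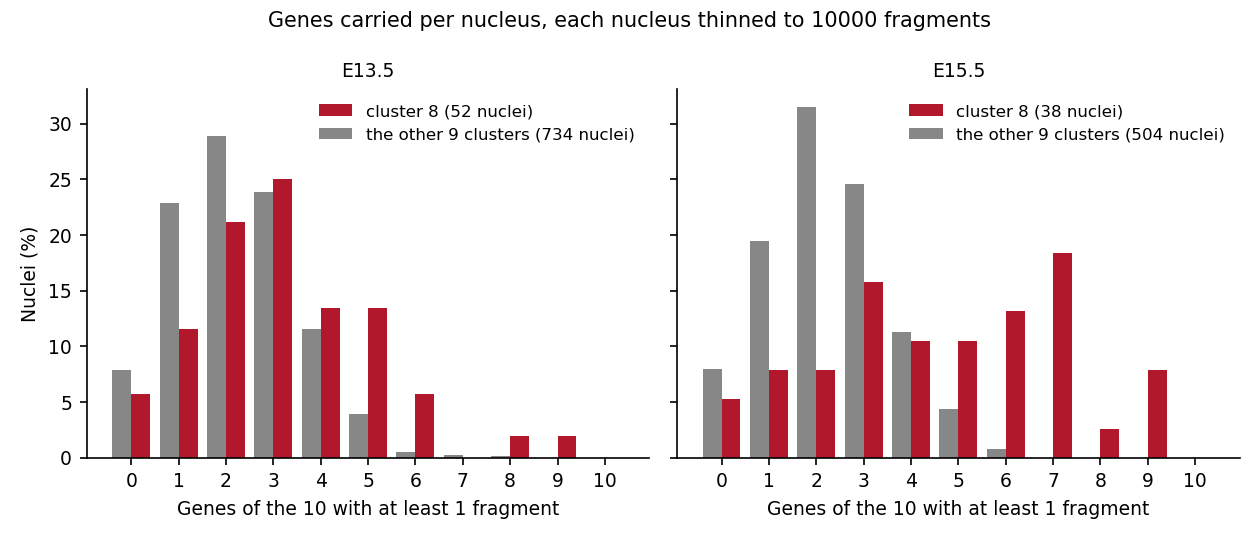
Share of nuclei (in %) by the number of the 10 genes with at least 1 fragment, after thinning each nucleus to 10000 fragments, for cluster 8 (red) and the other 9 clusters (grey) at E13.5 (left) and E15.5 (right). At E15.5 cluster 8 has 16 nuclei at 6 or more genes, where the other 9 clusters have 4 of 504.

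The 10 genes differed in how often these nuclei carried them. Among the 16 nuclei of E15.5 with 6 or more genes, all 16 carried Flt1, 14 carried Kdr, 14 Erg, 13 Tek, 13 Pecam1, 12 Cdh5, 12 Egfl7 and 10 Tie1, and 5 each carried Emcn and Sox17. These counts follow in part from the threshold itself and are a description. Of the other 22 nuclei of cluster 8 at E15.5, 14 carried Pecam1, 14 Erg, 9 Flt1, 5 Kdr and 2 Tie1. In the 504 nuclei of the rest, Erg was carried by 270, Flt1 by 197 and Pecam1 by 195, and Tie1 by 26. Tie1 at the promoter was seen after thinning in 8 of the 38 nuclei of cluster 8 and in 0 of 504 of the rest at E15.5, and in 4 of 52 and 1 of 734 at E13.5. The promoters of the other genes were seen at E15.5 in 0 to 4 nuclei of cluster 8 and 0 to 13 of the rest. Among them Egfl7, Erg and Sox17 were at 0 in cluster 8 and in 3, 3 and 7 nuclei of the rest.

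Genes outside the 10 were then read in the same thinned nuclei. Other endothelial surface and junction genes, 15 in number, gave 8.81 fragments per nucleus (7.42 to 10.4) in the 16 nuclei of E15.5 that carried 6 or more of the 10 genes, 3.82 (3.05 to 4.73) in the other 22 nuclei of cluster 8 and 2.69 (2.55 to 2.84) in the rest. At E13.5 the values were 6.60 (4.54 to 9.27) in 5 nuclei, 3.28 (2.78 to 3.84) in 47 and 2.55 (2.44 to 2.67) in the rest. Other endothelial transcription factors, 12 in number, gave 10.4 (8.86 to 12.1), 6.45 (5.44 to 7.61) and 3.44 (3.28 to 3.604) at E15.5, and 10.0 (7.42 to 13.2), 5.40 (4.76 to 6.11) and 3.75 (3.62 to 3.90) at E13.5. The 7 and 4 nuclei of other clusters that carried 6 or more of the 10 genes had 3 (1.86 to 4.59) and 1.75 (0.70 to 3.61) fragments per nucleus in the surface and junction list, intervals that overlapped those of the rest. Over both libraries, 14 of the 15 surface and junction genes were seen in at least 10 nuclei of cluster 8, and 12 of these in a larger share of the 21 nuclei with 6 or more genes than of the other 69, where 50.0% of 13388 genes were. The 21 nuclei were 5 of E13.5 and 16 of E15.5, and the other 69 were 47 and 22. Library and number of genes carried therefore cannot be told apart in shares of the 21 and the 69, here and below. Ptprb, a phosphatase of endothelial cells that acts on Tie2, was seen in 15 of 21 and 15 of 69. Cldn5, of endothelial tight junctions, was seen in 8 of 21 and 2 of 69, and Clec14a, an endothelial lectin that was seen in too few nuclei to enter that count, in 7 of 21 and 2 of 69. The 2 genes in a smaller share were Eng, seen in 9 of 21 and 30 of 69, and Calcrl, seen in 6 of 21 and 21 of 69. The ETS factors Fli1 and Ets1 were seen in 19 and 18 of the 21, and in 41 and 41 of the 69. Of 9 transcription factor genes seen in at least 10 nuclei, 7 were in a larger share. Cldn5 and Clec14a were named here after their values were seen.

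Hepatocyte and white blood cell genes were unevenly spread within cluster 8. The hepatocyte list of 12 genes gave 0.60 fragments per nucleus (0.12 to 1.75) at E13.5 in nuclei with 6 or more of the 10 genes, 4.02 (3.47 to 4.64) in the other 47 nuclei and 1.21 (1.13 to 1.29) in the rest, with 0 to 1 fragments in any single nucleus of the former and 0 to 17 in the latter 47. The 3 nuclei of cluster 8 at E13.5 that carried none of the 10 genes had 7.33 fragments per nucleus, the 17 with 1 or 2 genes 4.94, and the 32 with 3 or more 2.69. At E15.5 the hepatocyte list gave 1.19 (0.71 to 1.85), 2.23 (1.65 to 2.94) and 1.33 (1.23 to 1.43). The defining genes Alb, Apoa2, Ttr, Ahsg and Fgb, which encode plasma proteins, were at 0 in all 21 nuclei with 6 or more genes, and were seen in 7 to 14 of the other 69. Alb, Ahsg and Fgb were seen in too few nuclei to enter the next count. The share of all genes at 0 in the 21 is not given here. Of 7 hepatocyte genes seen in at least 10 nuclei, 6 were in a smaller share of the 21 nuclei, where 49.5% of all genes were. White blood cell genes, 11 in number, gave 3.88 (2.97 to 4.97) in those nuclei at E15.5, 7.00 (5.94 to 8.20) in the other 22 of cluster 8 and 3.06 (2.91 to 3.22) in the rest. The 6 nuclei of E15.5 with 1 or 2 of the 10 genes had 11.2 (8.65 to 14.2). At E13.5 the values were 4.40 (2.76 to 6.66), 6.19 (5.50 to 6.95) and 3.34 (3.21 to 3.48). Of 8 white blood cell genes seen in at least 10 nuclei, 6 were in a smaller share of the 21 nuclei, again beside 49.5% of all genes. Tyrobp and Cd68, seen in too few nuclei to enter that count, were at 0 in all 21 and were seen in 5 and 8 of the 69. The 2 in a larger share were Cx3cr1, seen in 17 of 21 and 53 of 69, and Mrc1, seen in 8 of 21 and 21 of 69. Other lists had few genes seen in at least 10 nuclei. In a larger share of the 21 were 3 of 3 erythroid, 3 of 4 mesenchyme, 3 of 5 mural and 2 of 3 epithelial genes. So were 2 of 4 neuron, 1 of 2 megakaryocyte and 1 of 5 blood progenitor genes, beside 50.0% of all genes. Over gene bodies, cluster 8 as a whole had 3 of 12 hepatocyte genes, Alb, Afp and Trf, and 9 of 11 white blood cell genes at least 1.5-fold higher in both libraries, where 4.65% of all genes were. The median fold of the hepatocyte list was 3.14 in the E13.5 library, where 11 of its 12 genes reached 1.5-fold (11.5% of all genes in that library alone), and 1.19 in the E15.5 library, where 3 did (11.7% of all genes). That of the white blood cell list was 2.38 and 2.22 in these libraries. The hepatocyte median was thus lower in the library where the summed fold of the 10 genes was higher, and the part of either cell type in the folds of the 10 genes was not tested. Since genes of other cell types were also higher in cluster 8, it is called by its number here, and its levels average over nuclei with many and with few of the 10 genes. Median depth before thinning was 139085 fragments in the 5 nuclei and 82640 in the 47 at E13.5, and 78646.5 in the 16 and 68174.5 in the 22 at E15.5.

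**Figure D4:**
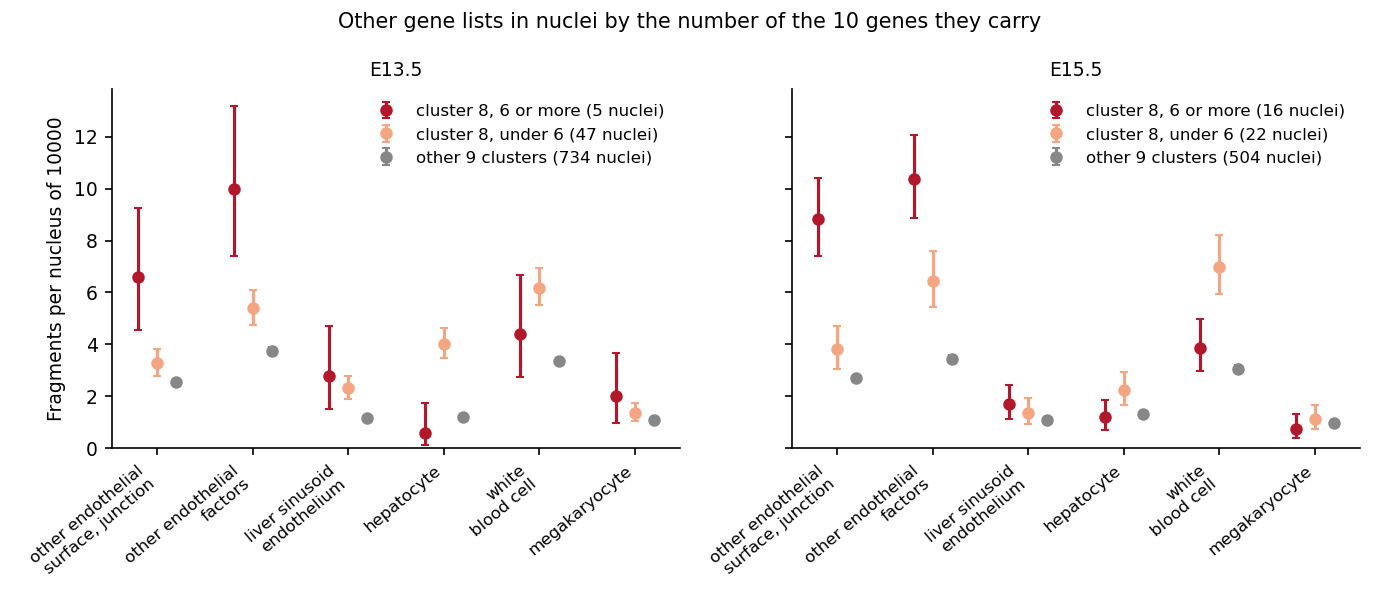
Fragments per nucleus, after thinning to 10000, in 6 gene lists that do not hold the 10 genes, at E13.5 (left) and E15.5 (right). Red points are nuclei of cluster 8 that carried 6 or more of the 10 genes, orange points its other nuclei and grey points the other 9 clusters, and bars are exact Poisson 95% intervals. The endothelial surface and junction list is highest in the red nuclei, at 6.60 and 8.81, and the hepatocyte list at E13.5 is highest in the orange nuclei, at 4.02.

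To find where along each gene cluster 8 differed, the counted span and the 10 kb upstream of the start were divided into 1888 stretches of 500 bp. For each gene, the stretch with the largest difference in CPM at E13.5 was chosen among those with at least 5 fragments in cluster 8. It was then read at E15.5, which had no part in the choice of the stretch. Cluster 8 itself rests on nuclei of both libraries. The 10 genes were also higher over the body at E15.5 (median fold 2.67, beside 0.981 for all genes tested). The counts below are therefore a description. In 9 of 10 genes the interval of the fold at E15.5 lay above 1, where it did in 18.6% of 17220 other genes whose stretch was chosen in the same way. The largest was the stretch at the start of Tie1 (chr4:118489691-118490190), with 32 fragments in cluster 8 and 19 in the rest at E13.5, or 10.01 against 0.53 CPM, and 64 and 8 at E15.5, or 37.8 against 0.38 CPM. Kdr had its stretch 44.4 kb downstream of its start, at its far end (chr5:75933827-75934326), with 4.69 against 0.33 CPM at E13.5 and 14.8 against 0.42 CPM at E15.5. In Cdh5 the stretch lay in an intron 9.25 kb downstream of the start (chr8:104110625-104111124), with 14 and 20 fragments at E13.5 and 19 and 10 at E15.5, a fold at E15.5 of 23.8 (10.5 to 57.3). In Tek it lay in an intron 7.25 kb downstream of the start and in Egfl7 1.25 kb upstream. Their folds at E15.5 were 13.4 (6.19 to 29.03) and 12.01 (6.48 to 22.2). The exception was Erg, where the intronic stretch chosen at E13.5 had 15 fragments in cluster 8 and 9 in the rest, and 0 and 16 at E15.5. Chosen at E15.5 and read at E13.5, 7 of 10 stretches had an interval above 1, where 22.9% of 15390 other genes did. The same stretch was chosen from either library in 3 genes, Tie1, Emcn and Sox17, and in 18.1% of 15193 other genes.

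**Figure D5:**
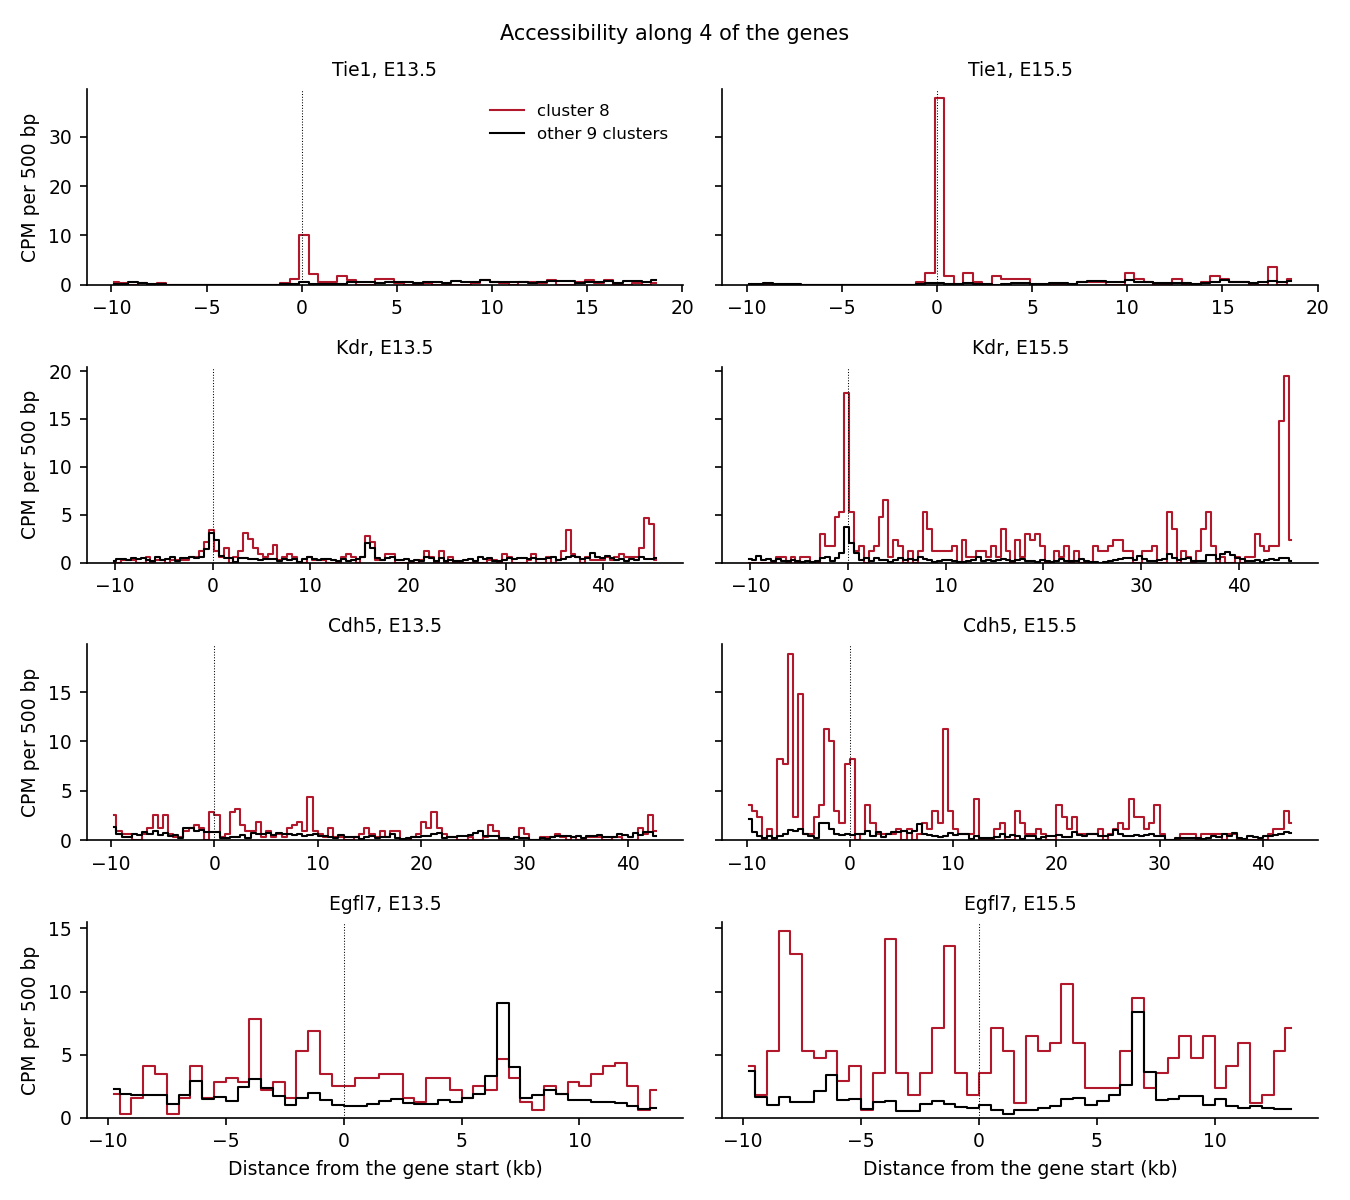
CPM per 500 bp along Tie1, Kdr, Cdh5 and Egfl7 against the distance from the gene start in kb, for cluster 8 (red) and the other 9 clusters (black) at E13.5 (left) and E15.5 (right), with the start as a dotted line and the same vertical scale for both libraries of a gene. Tie1 peaks at its start, with 10.01 and 37.8 CPM in cluster 8, and has no fragment in any group from 1.38 to 6.88 kb upstream, where nothing can be read.

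For Erg the start that was open in cluster 8 was an internal one. The RefSeq promoter at chr16:95459299-95459598, inside the gene, held 9 fragments in cluster 8 and 20 in the rest at E13.5, 5.05-fold (2.02 to 11.6), and 19 and 6 at E15.5, 39.7-fold (15.2 to 121.4). The RefSeq promoter at the outermost start held 2 and 51, and 0 and 16. Of the 3 RefSeq promoters of Egfl7, all of which begin inside the GENCODE span, the most upstream was 3.59-fold (1.40 to 8.21) and 23.0-fold (7.79 to 75.7) higher in cluster 8, and the most downstream 0.89-fold (0.46 to 1.56) and 1.63-fold (0.75 to 3.16), with 164 and 77 fragments in the other clusters. RefSeq promoters, which run from 250 bases before to 50 after a start, were given for 7 of the 10 genes, and Pecam1, Cdh5 and Sox17 had no entry.

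The bases just before some of the starts that separated cluster 8 are shown 5′ to 3′ on the strand of the gene, in lower case, because ETS and SOX factors belong to these genes. Capitals mark matches on either strand to AGGAAG and its variant CGGAAG for the ETS family, to ACAATG and its variant ACAAAG for the SOX family, and to AGATAA for the GATA family. No word of one family contains a word of another, though matches may overlap at their ends. Bases in annotated untranslated regions were left out. All are from mm10, those of Flt1, Emcn, Egfl7 and Erg from RefSeq (GRCm38.p6), at chr4:118490062-118490311 for Tie1, chr5:147726012-147726261 for Flt1, chr3:137340828-137341066 for Emcn, chr2:26580833-26581055 for Egfl7 and chr16:95459349-95459598 for the internal start of Erg.
Tie1: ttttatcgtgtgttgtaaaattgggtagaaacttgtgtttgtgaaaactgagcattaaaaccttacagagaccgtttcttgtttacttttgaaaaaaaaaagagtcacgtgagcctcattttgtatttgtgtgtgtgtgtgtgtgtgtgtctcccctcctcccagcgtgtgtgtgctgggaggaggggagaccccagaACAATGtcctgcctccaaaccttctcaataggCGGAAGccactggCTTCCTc
Flt1: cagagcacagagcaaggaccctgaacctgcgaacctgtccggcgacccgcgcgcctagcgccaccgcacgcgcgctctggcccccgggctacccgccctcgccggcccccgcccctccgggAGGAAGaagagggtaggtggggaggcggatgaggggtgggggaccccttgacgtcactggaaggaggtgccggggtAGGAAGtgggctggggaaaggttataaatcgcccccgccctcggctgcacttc
Emcn: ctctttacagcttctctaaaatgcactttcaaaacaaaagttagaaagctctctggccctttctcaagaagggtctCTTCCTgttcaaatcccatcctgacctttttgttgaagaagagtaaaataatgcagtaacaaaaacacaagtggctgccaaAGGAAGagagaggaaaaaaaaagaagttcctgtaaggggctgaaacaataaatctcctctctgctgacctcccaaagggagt
Egfl7: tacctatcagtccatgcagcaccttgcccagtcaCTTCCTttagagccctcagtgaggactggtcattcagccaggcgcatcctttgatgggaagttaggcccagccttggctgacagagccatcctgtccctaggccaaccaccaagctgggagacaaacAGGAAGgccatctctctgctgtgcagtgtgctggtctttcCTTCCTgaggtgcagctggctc
Erg: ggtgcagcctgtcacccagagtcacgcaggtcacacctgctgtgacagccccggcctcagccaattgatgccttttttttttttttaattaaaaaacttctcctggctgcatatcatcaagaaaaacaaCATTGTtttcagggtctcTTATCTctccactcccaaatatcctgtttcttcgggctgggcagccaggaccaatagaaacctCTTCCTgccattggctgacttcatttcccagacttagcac

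The run before Tie1 held 13 fragments in cluster 8 and 8 in the rest at E13.5 and 24 and 4 at E15.5. It has 2 matches to the ETS letters and 1 to the SOX letters. Flt1 and Emcn have 2 ETS matches each, Egfl7 has 3, and Erg has 1 match to each of the 3 kinds. The 247 bases before the start of Kdr hold none. The 250 bases before the start of Tek, not shown either, hold 1 SOX match and no ETS or GATA match. The 11 RefSeq promoters belong to 7 of the 10 genes, with several starts each for Egfl7 and Erg. In the 250 bases before the start, 6 (54.5%) held an ETS match, where 39.2% of all 32851 promoters did, 3 (27.3%) a SOX match, where 25.2% did, and 1 (9.09%) a GATA match, where 9.99% did. The SOX and GATA shares lie near those of all promoters. With 11 promoters the ETS share was not tested and is not read as raised. A match is only a description of the letters.

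Outside promoters, the middle 300 bases of 4 stretches chosen at E13.5 in introns or upstream, and of the stretch chosen for Cdh5 at E15.5, are shown in the same way. The Cdh5 stretch of E15.5 was added after its values were seen. They lie at chr8:104110725-104111024 (Cdh5, intron), chr8:104095725-104096024 (Cdh5, 5.75 kb upstream), chr4:94746389-94746688 (Tek, intron), chr5:147574704-147575003 (Flt1, intron) and chr2:26578614-26578913 (Egfl7, upstream).
Cdh5 intron: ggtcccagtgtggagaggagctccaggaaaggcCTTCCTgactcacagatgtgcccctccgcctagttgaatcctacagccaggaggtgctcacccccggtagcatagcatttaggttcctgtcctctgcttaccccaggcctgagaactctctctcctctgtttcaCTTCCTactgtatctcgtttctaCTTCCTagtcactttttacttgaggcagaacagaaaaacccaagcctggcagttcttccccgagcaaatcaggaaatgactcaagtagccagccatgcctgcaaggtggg
Cdh5 upstream: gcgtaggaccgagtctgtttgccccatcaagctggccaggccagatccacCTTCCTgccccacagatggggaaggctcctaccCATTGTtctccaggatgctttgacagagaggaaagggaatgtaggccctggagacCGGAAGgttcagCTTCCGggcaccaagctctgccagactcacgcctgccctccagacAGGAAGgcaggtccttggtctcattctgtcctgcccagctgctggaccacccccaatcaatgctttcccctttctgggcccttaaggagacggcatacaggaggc
Tek intron: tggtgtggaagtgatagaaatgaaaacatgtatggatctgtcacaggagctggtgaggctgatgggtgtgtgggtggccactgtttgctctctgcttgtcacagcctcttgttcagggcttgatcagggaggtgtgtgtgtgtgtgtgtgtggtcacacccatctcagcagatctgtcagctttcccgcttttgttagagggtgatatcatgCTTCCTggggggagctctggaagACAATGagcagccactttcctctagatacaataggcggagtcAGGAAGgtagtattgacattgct
Flt1 intron: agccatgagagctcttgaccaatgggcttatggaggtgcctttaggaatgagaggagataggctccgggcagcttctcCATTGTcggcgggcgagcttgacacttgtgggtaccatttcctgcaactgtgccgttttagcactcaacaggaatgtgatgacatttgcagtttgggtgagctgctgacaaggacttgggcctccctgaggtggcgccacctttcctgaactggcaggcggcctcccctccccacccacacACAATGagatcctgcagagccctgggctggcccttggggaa
Egfl7 upstream: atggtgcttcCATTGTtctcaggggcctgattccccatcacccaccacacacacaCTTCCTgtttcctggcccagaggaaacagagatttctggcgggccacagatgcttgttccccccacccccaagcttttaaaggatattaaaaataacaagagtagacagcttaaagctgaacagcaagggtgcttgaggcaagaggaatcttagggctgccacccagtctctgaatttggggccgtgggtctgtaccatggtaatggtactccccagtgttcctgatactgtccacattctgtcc

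The Cdh5 intron run has 3 ETS matches and held 11 fragments in cluster 8 and 12 in the rest at E13.5 and 17 and 9 at E15.5. The run upstream of Cdh5 has 4 ETS matches and 1 SOX match, with 6 and 27 fragments at E13.5 and 29 and 17 at E15.5. The Tek run has 2 ETS matches and 1 SOX match, the Egfl7 run 1 of each, and the Flt1 run 2 SOX matches and no ETS match. Of the stretches not shown, the intronic one of Erg chosen at E13.5 has 2 ETS matches and 1 SOX match, and those chosen at E15.5 have 1 ETS match in Egfl7 and none of the 3 kinds in Pecam1. Of the 300-base middles of all 1888 stretches, 36.0% held an ETS match, 36.8% a SOX match and 16.9% a GATA match.

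Other genes of the endothelium were read in cluster 8 as a whole, where 4.65% of all genes were higher over the body and 6.68% at the promoters of every start. Of 15 other surface and junction genes, 4 were at least 1.5-fold higher over the body in both libraries, Esam, Eng, Ecscr and Icam2, and 11 at the promoters of every start, with median folds of 1.44 and 2.08 over the body and 2.33 and 5.82 at the promoters. The 4 with the most fragments included Ptprb, at 0.96-fold over the body at E13.5 and 1.97-fold at E15.5, Eng, a co-receptor of TGF-beta family ligands, at 1.77 and 1.51-fold, Rasip1, at 1.51 and 1.17-fold, and Calcrl, at 1.61 and 1.36-fold. Of 12 other transcription factors, 4 were higher over the body, Fli1, Sox7, Klf2 and Hhex, and 5 at the promoters, the same 4 and Elk3. Fli1 was 1.71 and 2.77-fold higher over the body and 2.43 and 6.15-fold at its promoters. Hhex, which also acts in the liver bud, was 3.67 and 4.77-fold higher over the body. Of 10 ligands and other receptors of the VEGF and angiopoietin pathways, 0 were higher over the body and 1, Angpt2, at the promoters, from 9 and 6 fragments, and the body medians were 0.98 and 1.19. Nrp1, a co-receptor of VEGF, was at 1.36 and 1.48-fold over the body, Nrp2 at 1.12 and 1.27-fold, the ligand gene Angpt1 at 1.07 and 1.10-fold, and Vegfa at 0.98 and 0.66-fold. Flt4, a receptor gene of this list named after its values were seen, was at 1.30 and 2.70-fold (2.28 to 3.18 at E15.5) over the body. At its promoters it was at 1.44 and 0.86-fold, from 6 and 2 fragments in cluster 8.

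Of 12 arterial, venous and lymphatic genes, 1 was higher over the body, Aplnr, the apelin receptor, at 2.79-fold at E13.5 and 4.87-fold at E15.5, and 2 at the promoters, Aplnr and Notch4. Counts of this and the next list again stand beside 4.65% of all genes over the body and 6.68% at the promoters. Gja5, which encodes an arterial connexin and had the most fragments of the list, was at 1.01 and 0.77-fold over the body. The arterial ligand gene Efnb2 was at 0.95 and 1.00-fold over the body and the venous receptor gene Ephb4 at 1.051 and 1.42-fold. In the 16 nuclei of E15.5 with 6 or more of the 10 genes, this list gave 6.25 fragments per nucleus (5.09 to 7.60), beside 3.45 (2.72 to 4.32) in the other 22 and 3.94 (3.77 to 4.12) in the rest. Of its 10 genes seen in at least 10 nuclei, 8 were in a larger share of the 21 nuclei than of the other 69, beside 50.0% of all genes, and the shares were close for some of them, such as Hey2, Notch4 and Gja5. Of 7 genes of the liver sinusoid endothelium, 5 were higher over the body, Stab1, Lyve1, Clec4g, Gpr182 and Fcgr2b, and 3 at the promoters, Stab1, Stab2 and Oit3, so that Stab1 alone was higher by both. That list gave 1.69 (1.11 to 2.46) fragments per nucleus in the 16 nuclei of E15.5, 1.36 (0.92 to 1.95) in the other 22 and 1.07 (0.98 to 1.16) in the rest, so intervals in the 2 sets of cluster 8 overlapped.

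In the remaining lists, again beside 4.65% of all genes, 1 of the 6 megakaryocyte genes with at least 50 fragments in both libraries (all but Ppbp of the 7 listed) was higher in cluster 8 over the body, the platelet factor gene Pf4, as were 0 of 5 blood progenitor genes, 0 of 7 erythroid, 0 of 7 mural, 0 of 6 mesenchyme, 0 of 6 neuron and 1 of 6 epithelial genes, Cldn4. The median body fold of the epithelial list was 1.76 at E13.5, the highest of these lists in that library, and 1.14 at E15.5. All 6 mesenchyme genes, 5 of 6 neuron genes (all but Elavl3), 2 of 7 erythroid genes (Slc4a1 and Ank1) and 1 of 7 mural genes (Notch3) were at least 1.5-fold lower in both libraries, where 6.74% of all genes were. The 10 genes outside the list whose level was most like the mean of the 10 over 24 sums of a cluster and library, each of at least 10 nuclei, were Prkch, Gm28053, Gm20532, Fgd3, Dock11, Clip1, Synj2, Klhl3, Nceh1 and Gata3, with Pearson r of log2(CPM + 1) from 0.94 to 0.91, where the median of 16577 genes was 0.18. The 99th percentile of r was 0.849, and the 10 genes were taken as the highest. None of them belongs to the other gene lists read here. The sums share libraries and depth, so r is a description. Gm20532 shares fragments with Egfl7 and cannot be counted as a separate gene. Prkch, which encodes a protein kinase C of endothelial and other cells, was 1.67-fold (1.55 to 1.80) and 2.07-fold (1.89 to 2.27) higher in cluster 8. Among the 10 genes themselves r with their mean ran from 0.53 for Kdr to 0.95 for Tek, which also enter that mean.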

How the data were processed

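Nuclei of 3 libraries, 1 per stage, were analysed from the deposited fragment files and a table of nuclei. Per the file headers, the authors made the fragments with Cell Ranger ATAC 2.0.0 on mm10, and the submitters' processing notes name Seurat 4.1.0 and Signac 1.6.0. A deposited fragment row gives a position, a barcode and a count of read pairs, and each row was counted once as a unique fragment. The authors' cluster numbers were taken from the table, and the study's methods describe integrating the nuclei with the spatial profiles (anchors on reciprocal LSI, then Harmony) and clusters from that integration, without tying the deposited numbers to it or giving the clustering settings. The table's other 20 columns were not used.

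Fragments were counted over GENCODE vM21 protein-coding genes: of 21938, 91 Pcdh and Ugt genes and 228 with spans over 500 kb were set aside and repeated symbols were kept once, which left 21593. Counts over gene bodies, 500 bp stretches and RefSeq promoters were divided by all fragments in gene bodies plus 2 kb of the same cluster and library. Counts at the promoter, also with every start, were divided by all fragments at the outermost promoters. CPM of these 2 kinds cannot be compared with each other. Sums have exact Poisson intervals, ratios exact conditional binomial intervals and shares exact Clopper-Pearson intervals at 95%. Read pairs were not used as independent molecules. A count of 0 was read as up to 3 counts. No doublets were removed, and barcodes that shared at least 10% of their fragments were kept, with 1 barcode per linked group as an alternative. No significance test was run.

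The naming rule covered all 10 genes, up to 4 genes per list with the most fragments, called genes of lists of 10 or fewer, and the 10 genes most like the 10. Not every gene it allowed is named, and genes outside it, such as called genes of longer lists and genes at 0, were named after their values were seen. The genes and lists were chosen with earlier results of these data known. Alternatives added after seeing the data were the promoters of every start, the minimum of 10 fragments at promoters, the threshold of 6 genes, the removal of those nuclei, the minimum of 10 nuclei for genes compared between them and the rest of cluster 8, and the stretches chosen at E15.5. The script for the fold rule was checked on simulated counts. Python 3.11.15, numpy 2.4.6, scipy 1.17.1, pandas 2.3.3 and matplotlib 3.10.9 were used.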

Additional observations from a re-analysis of the deposited data

Results flagged for a closer look

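The 10 genes also had fragments in data left out of the main comparisons, all above the level that 3 counts would give. In barcodes outside the table of nuclei, their summed level was 726.2 CPM at E12.5, 854.6 CPM at E13.5 and 764.1 CPM at E15.5. In cluster 2 it was 818.8, 684.6 and 779.6 CPM, and in cluster 4 it was 785.4, 1104.8 and 240.7 CPM, the latter from 14, 40 and 12 fragments. Emcn was lower in cluster 8 than in the other 9 clusters over its body at E13.5, at 0.807-fold, and higher at E15.5, at 1.1-fold. Both intervals include 1, and the difference between the libraries was not tested.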

How the results depend on the processing

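The summed fold of cluster 8 (1.36, 1.44 and 2.43 in the libraries of E12.5, E13.5 and E15.5) was 0.449, 2.17 and 5.5 at the promoter only, the first from 1 fragment and below 1. At E13.5 and E15.5 it was 1.53 and 2.55 per all unique fragments, 1.55 and 2.67 with the other clusters weighted equally, 1.51 and 2.67 with every nucleus weighted equally, 1.53 and 2.56 in read pairs, and 1.21 and 1.44 without the nuclei of 6 or more genes. Without nuclei over 3 times the median depth it was 2.69 at E15.5. The number of genes called, 5 (4.65% of all genes), was 1 at the promoter only (4.10%), where 2 genes passed the minimum of 50 fragments, 0 at a fold of 2 (1.15%), and 5 to 8 with 1 library left out (8 without E13.5, where 11.7% of all genes were called, and 5 without E15.5, where 2368 of 19704 genes were). The share of cluster 8 nuclei with at least 5 genes (100, 88.5 and 92.1%) was 0, 23.1 and 52.6% after thinning, 0, 5.77 and 21.1% at the promoter only, and 0, 9.62 and 42.1% for 6 genes after thinning. With 2 fragments required per gene it was 55.8% at E13.5 and 71.1% at E15.5. In the other clusters (79.0, 66.7 and 68.5%) it was 7.59, 4.9 and 5.16%, then 0.0% in each library, then 2.53, 0.954 and 0.794%, and 58.0, 42.8 and 36.9% with 2 fragments, and 57.5% at E12.5 without the deepest nuclei. The share with 2 or more genes at the promoter went from 36.5 to 5.77% and from 63.2 to 18.4% after thinning. The share of fragments in cluster 8 (1.94, 11.4 and 16.2%) was 1.08, 16.1 and 31.2% at the promoter only. Thinning and the removal of nuclei with 6 or more genes lower these values by construction, and the cause of the other shifts was not tested. Of the remaining values under alternatives, 60 for these results and 156 for single genes stayed within their interval or, for the number of genes called, within 1.5 times the main count (6 per all unique fragments, with clusters weighted equally, in read pairs and without the deepest nuclei, and 7 with every start), and 22 for single genes moved by more, of which 1 crossed 1 (Emcn at E13.5, 2.33 at the promoter only against 0.807). Erg went from 1.27 and 1.43 to 0.434 and 0.288 at the promoter only, below 1 in both libraries. No paired analysis was possible because each stage had 1 library and no test was run. The number of nuclei limited E12.5 most, where cluster 8 had 2 and a promoter at 0 allows up to 182.1 CPM.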
